A study of Mus musculus with 16 samples.

Results

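The genes described here are 7 complement genes (C3, C4b, C2, Cfb, Cfp, Serping1 and Cd55), taken by their symbol in the annotation of the array platform. The list was chosen with earlier results of these data known. Of these 7 genes, 5 had a probe named for them among the 16593 genes and 25697 probes of the array, with 1 probe each, while C3 and Cfp were not analysed here. The study asked how the heart of the BACHD mouse, a model of Huntington's disease with a bacterial artificial chromosome that holds human mutant huntingtin in full length, differs from that of its wild-type (WT) littermates. Ventricle RNA was hybridised in 4 groups of 4 arrays: WT and BACHD mice at 3 mo (young) and WT and BACHD mice at 15 mo (old), all untreated and on the C57BL6/J background per the methods, which count 4 mice per group. The labels give the genotype, young or old, and heart, and the ages in months and the ventricle come from the methods. The transgene is present in the whole animal, so changes that begin in heart cells and changes that begin elsewhere cannot be told apart. The p-values measure the spread between these arrays.

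Complement is a cascade of plasma proteins that tags cells and debris for removal and can pierce membranes. It is started by the classical route through C1, by the lectin route through mannose-binding lectins and ficolins, or by the alternative route through factor B, and all of these meet at C3. Most circulating components are made by the liver, while fibroblasts, macrophages and endothelial cells make some of them locally, so a heart sample holds both local transcripts and any RNA carried in from other tissue.

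All values below are log2 intensities after background correction and quantile normalization, and a gene is called changed at a limma P below 0.005 without adjustment, which is the threshold named in the study's methods. P-values adjusted by Benjamini-Hochberg over all 25697 probes are given beside the calls. A probe counts as detected on an array when its detection p-value, which compares it with negative control beads, is below 0.01. An array detected 9780 to 10755 probes and had a median raw intensity of 132.7 to 156.8, pairs of arrays correlated at 0.984 to 0.994, and 16 arrays limit the precision of every comparison. On 4 arrays (WT young 1, WT young 4, BACHD young 3 and WT old 3) the mean of 13 hepatocyte marker genes was 8.38 to 9.25, against 4.72 to 7.12 on the other 12. On 4 old arrays (WT old 2, WT old 4, BACHD old 3 and BACHD old 4) the mean of 8 atrial marker genes was 8.03 to 8.95, against 6.96 to 7.36 on the rest. The mean of 9 ventricular cardiomyocyte markers lay between 13.30 and 13.42 on every array. Calls of complement genes with age that changed without these arrays, or with the marker level as a covariate, are given below.

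C4b was higher in old than in young ventricles of both genotypes, and no complement gene of the 5 was called between BACHD and WT at either age. C4b encodes complement C4, which the C1 and lectin proteases cleave so that it binds to a surface and anchors the enzyme that activates C3. Its probe (ILMN_3049559) was detected on all 16 arrays. The C4b values of the young WT arrays were 7.93, 8.08, 6.87 and 7.75 on the log2 scale, and those of the old WT arrays were 8.17, 8.98, 8.95 and 9.07. Every old WT array was above every young WT array. The young BACHD arrays had C4b values of 7.46, 7.88, 8.16 and 7.85, and the old BACHD arrays 8.42, 8.85, 8.59 and 9.39. Here too the 4 old arrays all lay above the 4 young ones.

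Group means of C4b were 7.66 ± 0.54 (SD, n = 4) in young WT, 7.84 ± 0.29 in young BACHD, 8.79 ± 0.42 in old WT and 8.82 ± 0.43 in old BACHD mice. The age difference in WT mice was 1.13 on the log2 scale (SE 0.27, 95% interval 0.55 to 1.72), or 2.19-fold, with a limma P of 0.00084 and an adjusted p of 0.078. In BACHD mice it was 0.98 (SE 0.27, 95% interval 0.40 to 1.56), or 1.97-fold, with a limma P of 0.0027 and an adjusted p of 0.066. A two-sided exact permutation test gave 0.0286 for each, the smallest p that 4 against 4 arrays allow. Neither age difference passed the adjusted threshold of 0.05. Among all probes, 2.76% were called between ages in WT and 5.16% in BACHD mice, and 1 of the 5 complement genes was called in each. Groups whose 4 arrays did not overlap were found for 6.81% of all probes between ages in WT and for 8.9% in BACHD mice, and among the 5 genes for C4b alone in both.

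**Figure D1:**
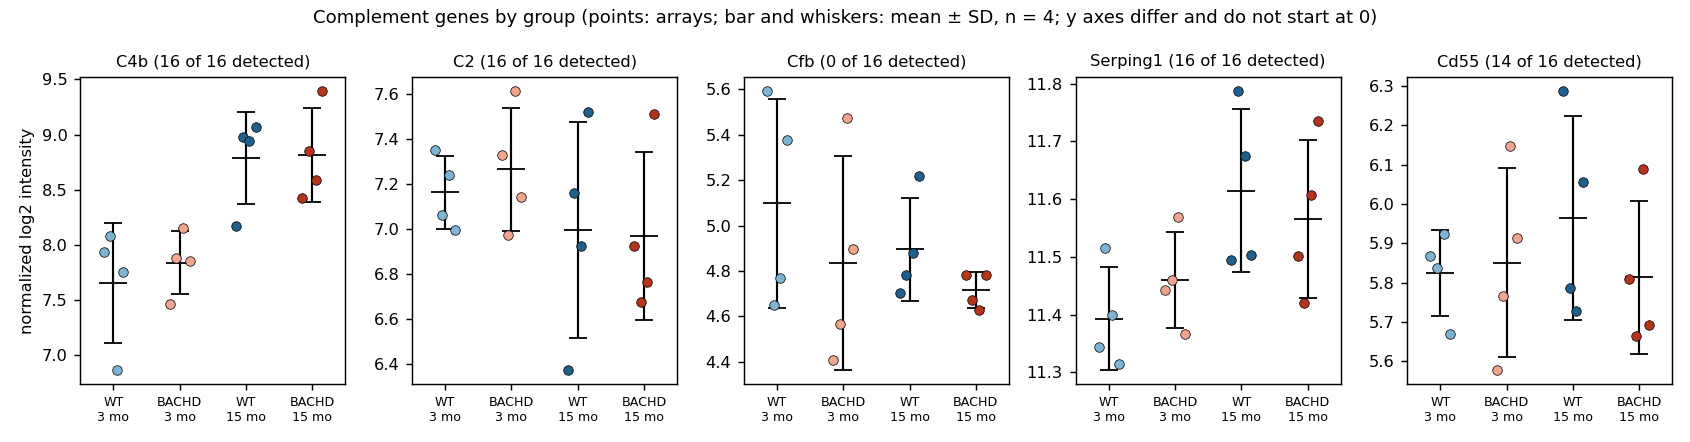
Normalized log2 intensity of the 5 complement genes with a probe in the 4 groups, 1 point for each array, with the mean and SD of 4 arrays as bars. C4b lies at 8.17 or higher on all old arrays and at 8.16 or lower on all young arrays, while the groups of the other 4 genes overlap.

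The genotypes did not separate for C4b. The BACHD minus WT difference was 0.18 at 3 mo (95% interval -0.40 to 0.76) and 0.02 at 15 mo (95% interval -0.56 to 0.61), with limma P of 0.52 and 0.93. The interval at 15 mo still allows a shift of 0.56 downwards or 0.61 upwards. The change of the genotype effect with age was -0.16 (95% interval -0.98 to 0.67, limma P 0.69), so a different age response of C4b in BACHD and WT mice was not detected with 4 arrays per group.

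The 4 old arrays with raised atrial markers had C4b values of 8.98, 9.07, 8.59 and 9.39, and the other 4 old arrays had 8.17, 8.95, 8.42 and 8.85, so that both sets overlapped and both lay above every young array. Without those 4 arrays the C4b age difference was 0.90 in WT (limma P 0.019) and 0.80 in BACHD mice (limma P 0.033), past the threshold in neither. With the atrial marker level as a covariate it was 0.82 (limma P 0.013) and 0.77 (limma P 0.012). All arrays with raised atrial markers are old, and the markers include Dkk3, which was itself called with age in both genotypes. Here and below, this covariate can therefore take up part of the age difference. Without the 4 arrays of raised hepatocyte markers the C4b age difference was 1.27 (limma P 0.0062) and 1.08 (limma P 0.0055), which is larger in size but short of the threshold with fewer arrays. The BACHD call also ended, with differences of 0.79 to 0.99, when BACHD young 1, BACHD young 2, BACHD young 4, BACHD old 2 or BACHD old 4 was left out, and with trended and robust variances (limma P 0.0057), while the WT call held without each single array. The adjusted p ran from 0.0043 to 0.37 in WT and from 0.0045 to 0.29 in BACHD mice over all alternatives. Fibroblasts make C4 locally. Of 12 measured fibroblast markers 5 were lower and 0 higher with age in BACHD mice, where 5.16% of all probes were called. Among the 5 were the collagens Col1a1 by -1.25, Col3a1 by -0.92 and Col1a2 (detected on 3 arrays) by -0.81 and the microfibril gene Mfap5 by -1.0. In WT mice 1 of the 12, Mfap5, was lower with age, by -0.83, where 2.76% of all probes were called. The part of fibroblast number in the C4b values was not tested. In bulk RNA, more cells of a type that makes C4b and more C4b RNA per cell cannot be told apart. The C4b transcript is close in sequence to that of its paralog C4a. The single C4a probe was detected on 0 arrays, and cross-hybridisation of C4a RNA to the C4b probe was not tested.

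Serping1 encodes the C1 inhibitor, the serpin that disarms the C1r and C1s proteases and limits the start of the classical and lectin routes. Its probe (ILMN_2913166) was detected on all 16 arrays. Its values were 11.34, 11.52, 11.40 and 11.31 in young WT mice and 11.49, 11.79, 11.67 and 11.50 in old WT mice. The young BACHD arrays gave 11.44, 11.46, 11.57 and 11.37, and the old BACHD arrays 11.50, 11.42, 11.61 and 11.74. The whole spread over 16 arrays was 11.31 to 11.79, and old and young arrays overlapped in both genotypes. Serping1 differed with age by 0.22 in WT (95% interval 0.04 to 0.40, limma P 0.019, adjusted p 0.32, exact permutation p 0.0857) and by 0.11 in BACHD mice (95% interval -0.07 to 0.29, limma P 0.23), and was called in neither. Between genotypes it differed by 0.07 at 3 mo (95% interval -0.11 to 0.25) and by -0.05 at 15 mo (95% interval -0.23 to 0.13).

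C2 supplies the protease of the classical and lectin C3 convertase, and in the RefSeq gene table it lies next to Cfb, its counterpart in the alternative route. The C2 probe (ILMN_2612895) was detected on all 16 arrays. Its values were 7.35, 7.06, 7.24 and 7.0 in young WT and 7.33, 6.98, 7.61 and 7.14 in young BACHD mice. They were 6.38, 7.16, 6.92 and 7.52 in old WT and 6.92, 6.68, 6.77 and 7.51 in old BACHD mice. The old groups spread more widely, with SDs of 0.48 and 0.37 against 0.16 and 0.27 in the young, and each old group holds 1 array above 7.5. C2 differed by 0.10 between genotypes at 3 mo (95% interval -0.37 to 0.57) and by -0.03 at 15 mo (95% interval -0.50 to 0.44). With age it differed by -0.17 in WT (95% interval -0.64 to 0.30) and by -0.30 in BACHD mice (95% interval -0.77 to 0.17), and no comparison of C2 was called.

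Cd55 encodes decay-accelerating factor, an anchored membrane protein that breaks up the C3 convertases on the cell's own surface. Its probe (ILMN_1248714) was detected on 14 arrays, 3 of 4 in each young group and all 8 old ones. The lowest value was 5.58 and the highest 6.29, and the group means were 5.82 ± 0.11, 5.85 ± 0.24, 5.96 ± 0.26 and 5.81 ± 0.19 (SD, n = 4) in young WT, young BACHD, old WT and old BACHD mice. Cd55 differed between genotypes by 0.03 at 3 mo (95% interval -0.27 to 0.32) and by -0.15 at 15 mo (95% interval -0.45 to 0.14). Its age difference was 0.14 in WT (95% interval -0.16 to 0.43) and -0.04 in BACHD mice (95% interval -0.33 to 0.26). The probe of its paralog Cd55b was detected on 0 arrays, and cross-hybridisation between the paralogs was not tested.

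Cfb encodes factor B, the protease of the alternative C3 convertase. Its probe (ILMN_1230853) did not pass the detection cutoff on any of the 16 arrays, with values of 4.41 to 5.59, so no fold is given. Cfb was 4.88 to 5.59 on the 4 arrays with raised hepatocyte markers and 4.41 to 5.22 on the other 12, ranges that overlap. Its Pearson r with the mean of the hepatocyte markers was 0.72 over the 16 arrays, from a probe that was not detected on any of them.

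**Figure D2:**
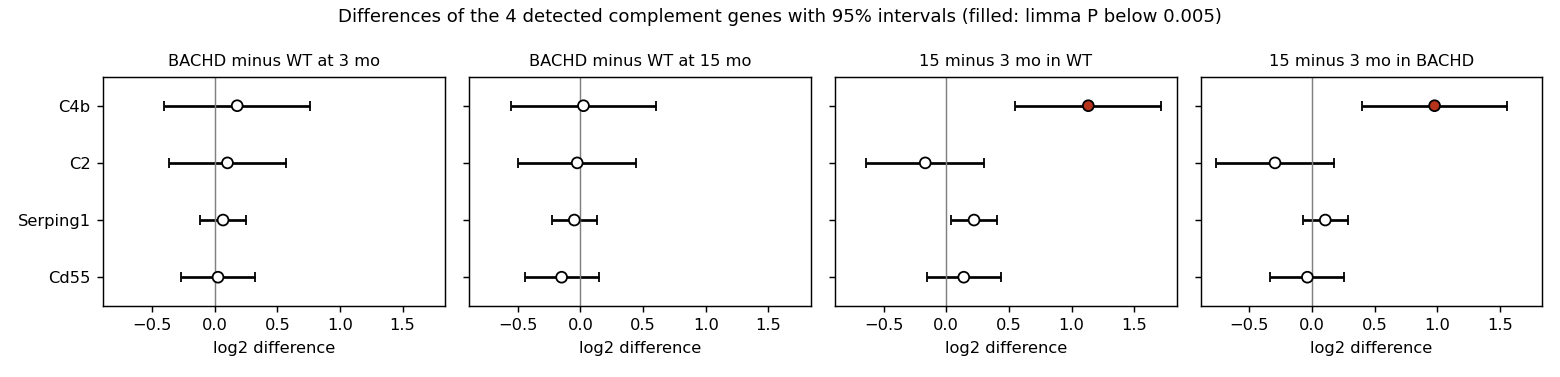
Log2 differences of the 4 detected complement genes in the 4 comparisons, with 95% intervals from limma (16 arrays, 4 per group), where filled points have P below 0.005. C4b with age is filled at 1.13 in WT and 0.98 in BACHD mice, and all genotype differences lie between -0.15 and 0.18.

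By genotype, 0 of the 5 complement genes were called at 3 mo and 0 at 15 mo, where 0.483% and 0.887% of all probes were called, and 0 of 5 had groups that did not overlap, against 2.88% and 3.21% of all probes. None of the 5 had an unadjusted limma P under 0.05 between genotypes, and over the 25697 probes 0 passed the adjusted threshold of limma in either genotype comparison, while 1254 and 1574 had an unadjusted limma P under 0.05. The median difference of the 5 genes was 0.07 at 3 mo and -0.05 at 15 mo, beside 0.0031 and 0 over all probes. Of the change of the genotype effect with age, 0 of 5 were called against 0.611% of all probes.

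The rest of the pathway was read from a list of 56 further complement genes. A probe named 44 of them, 16 of these reached detection on 4 arrays or more and 20 on no array. By genotype, 0 of the 44 were called at 3 mo and 0 at 15 mo, where 0.483% and 0.887% of all probes were called. At such shares, 0 calls among 44 genes do not tell the list apart from all probes. With age, 2 of 44 were higher and 0 lower in WT mice, and 0 were higher and 3 lower in BACHD mice, where 2.76% and 5.16% of all probes were called, so these counts are close to the share over the whole array. The median difference of the 44 with age was -0.03 in WT and -0.10 in BACHD mice, beside -0.00034 and -0.0016 over all probes. The 3 genes that were lower in old BACHD mice encode the A, B and C chains of C1q, the recognition part of C1 that binds antibody and dying cells, and the 2 that were higher in old WT mice encode the protease C1s and the receptor Vsig4.

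**Figure D3:**
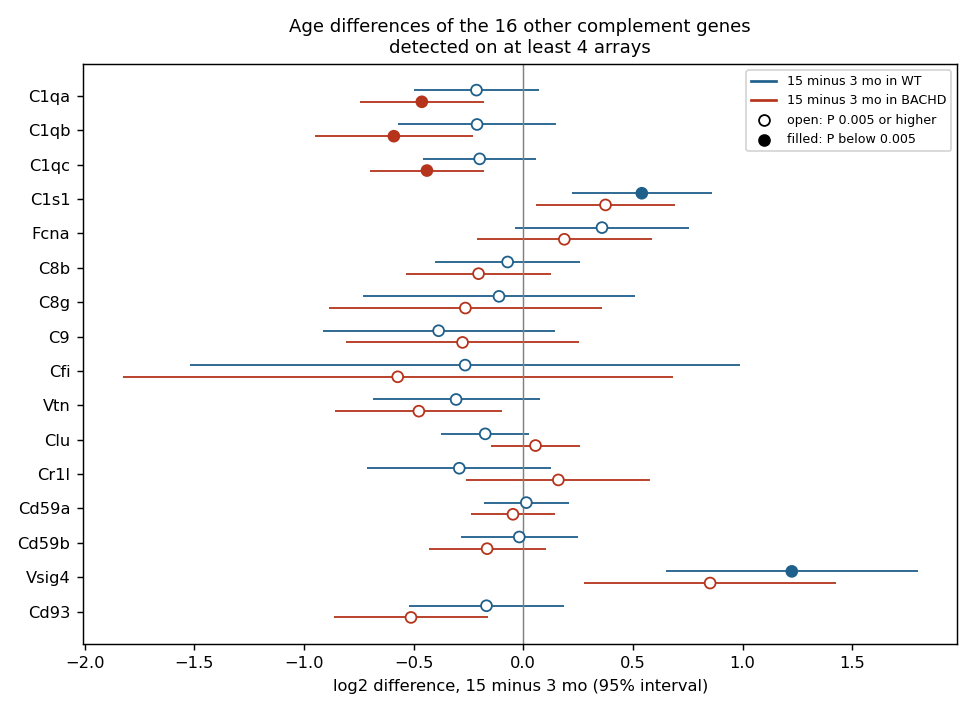
Log2 differences between 15 and 3 mo of the 16 other complement genes detected on at least 4 arrays, in WT and BACHD mice, with 95% intervals from limma, where filled points have P below 0.005. The 3 C1q genes lie below 0 in both genotypes and are filled in BACHD mice, while C1s1 and Vsig4 lie above 0 in both and are filled in WT mice.

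C1q transcripts come mainly from macrophages. C1qb was 10.21, 10.73, 10.54 and 10.68 on the young BACHD arrays and 9.79, 9.70, 10.16 and 10.15 on the old ones, so the ages did not overlap. It differed by -0.59 (SE 0.17, 95% interval -0.95 to -0.23, limma P 0.0032, adjusted p 0.074). C1qa was 8.02, 8.29, 8.40 and 8.22 on the young BACHD arrays and 7.71, 7.51, 7.94 and 7.92 on the old ones, again without overlap. Its difference was -0.46 (SE 0.13, limma P 0.0034, adjusted p 0.077). C1qc went from 9.72, 10.20, 10.17 and 10.21 to 9.50, 9.46, 9.82 and 9.75, where BACHD young 1 fell among the old arrays. It differed by -0.44 (SE 0.12, limma P 0.0025, adjusted p 0.064). Calls of the 3 chains are not independent of each other, since they come from the same arrays.

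In WT mice the same 3 chains had age differences of -0.21, -0.21 and -0.20 for C1qa, C1qb and C1qc, with limma P of 0.13, 0.23 and 0.12. Without WT young 1 they were -0.33, -0.40 and -0.30, and without WT young 3 that of C1qb was -0.10 and that of C1qa -0.13. The test of the change of the genotype effect with age gave -0.25, -0.38 and -0.24 with limma P of 0.21, 0.13 and 0.18, so a difference between the genotypes in the age response was not shown. At 15 mo BACHD minus WT was -0.29 for C1qa (limma P 0.044), -0.34 for C1qb (limma P 0.064) and -0.23 for C1qc (limma P 0.082). The 4 old BACHD arrays of C1qb all lay below the 4 old WT arrays, which were 10.25, 10.29, 10.42 and 10.19. This comparison shares the old BACHD arrays with the one between ages. Leaving out any 1 of BACHD young 2, BACHD young 3, BACHD young 4, BACHD old 1 and BACHD old 2 ended the call of each of the 3 chains with age in BACHD mice, with differences between -0.59 and -0.38. Without the 4 arrays of raised hepatocyte markers C1qa was also called with age in WT mice (-0.48, limma P 0.0035), and its change of the genotype effect with age turned to 0.077. The same exclusion ended the C1qc call in BACHD mice (-0.41, limma P 0.0087). The atrial marker level as a covariate ended the BACHD calls of C1qa (-0.45, limma P 0.0088) and C1qb (-0.61, limma P 0.0062).

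Of 13 measured macrophage markers, none of which is a C1q gene, 3 were lower and 0 higher in old than in young BACHD mice. Over all probes 5.16% were called in that comparison. The 3 were Adgre1 (F4/80) by -0.80, Folr2 by -0.50 and Lyz1 by -0.35, while 10 were not called and 4 of the 13 had a positive difference. Adgre1 was also lower in BACHD than in WT mice at 15 mo, by -0.61 (limma P 0.0028, adjusted p 0.53). The mean of the 13 markers was 8.0 to 8.20 on the young BACHD arrays, 7.69 to 8.14 on the old BACHD arrays, 7.92 to 8.37 on the young WT arrays and 7.96 to 8.06 on the old WT arrays, so the ages overlapped, and Ptprc was detected on 0 arrays. The part of macrophage number in the C1q values was not tested.

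Vsig4 is a macrophage receptor for the C3b and iC3b fragments. Its probe was detected on 14 arrays, with values of 6.16, 6.44, 6.20 and 5.55 in young WT and 7.26, 7.28, 6.95 and 7.76 in old WT mice. All 4 old WT arrays lay above all young ones. The difference was 1.22 (SE 0.27, limma P 0.00039, adjusted p 0.054), or 2.33-fold, opposite in direction to the C1q chains. In BACHD mice Vsig4 was 5.60, 6.23, 6.49 and 6.04 at 3 mo and 6.43, 6.79, 6.81 and 7.75 at 15 mo, a difference of 0.85 (limma P 0.0065, adjusted p 0.11) that was not called. With the atrial marker level as a covariate the WT difference was 0.86 (limma P 0.0065), and without the 4 arrays of raised hepatocyte markers it was 1.11 (limma P 0.0053), both past the threshold no longer. Without the same hepatocyte arrays Vsig4 was called in BACHD mice instead (0.98, limma P 0.0037). Over 21 alternatives Vsig4 was called with age in 19 in WT mice and in 5 in BACHD mice. The call moved from WT to BACHD mice only when the hepatocyte arrays were left out.

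C1s1 encodes the C1s protease that cleaves C4 and C2, and it is one of the targets of the C1 inhibitor. Its brighter probe was 5.66, 5.93, 5.48 and 5.99 in young WT and 6.33, 6.54, 6.16 and 6.19 in old WT mice, without overlap. The difference was 0.54 (SE 0.15, limma P 0.0025, adjusted p 0.13) in WT and 0.37 (limma P 0.024) in BACHD mice. A second C1s1 probe, detected on 6 arrays, differed by 0.33 (limma P 0.082) in WT and 0.55 (limma P 0.0076) in BACHD mice, so both probes had positive differences with age, and the brighter one was called in WT alone. With the probes averaged, C1s1 was called in BACHD (0.46, limma P 0.0042) and not in WT mice (0.44, limma P 0.0061). The WT call of the brighter probe ended without WT young 1, WT young 3, WT old 1 or WT old 2, with differences of 0.44 to 0.53, without the arrays of raised atrial markers (0.48), without those of raised hepatocyte markers (0.65) and with the atrial marker level as a covariate (0.52).

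**Figure D4:**
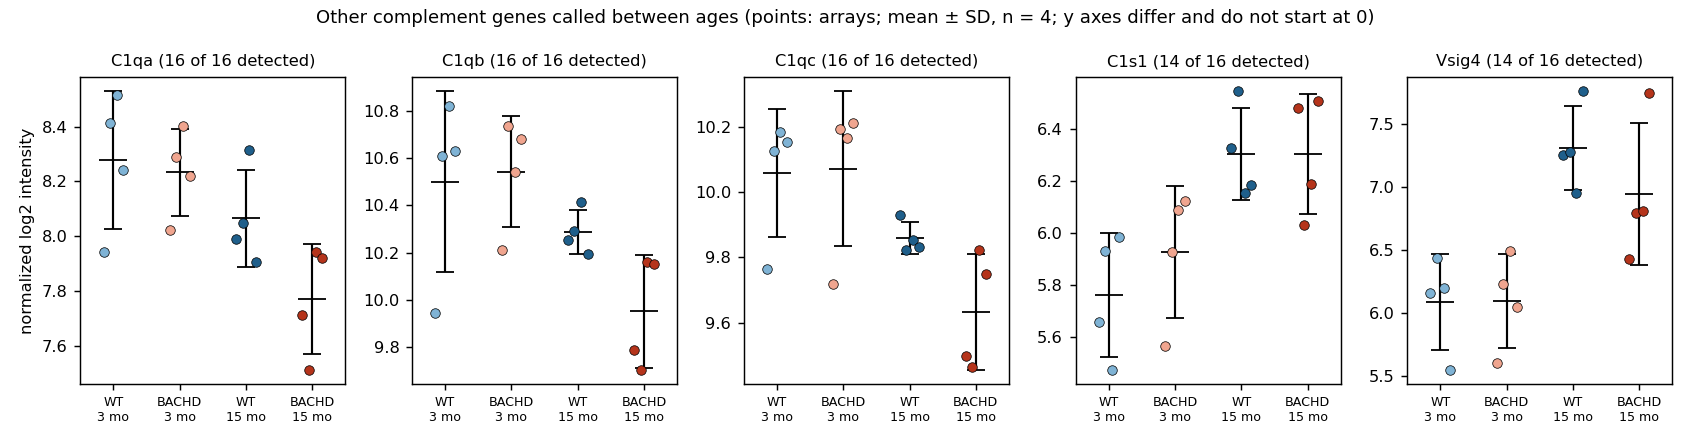
Normalized log2 intensity of C1qa, C1qb, C1qc, C1s1 and Vsig4 in the 4 groups, 1 point for each array, with the mean and SD of 4 arrays as bars. The C1q chains have their lowest group means in old BACHD mice (7.77, 9.95 and 9.63), and C1s1 and Vsig4 are higher at 15 mo in both genotypes, with group means of 6.30 and 6.30 for C1s1 and 7.31 and 6.95 for Vsig4 in old WT and BACHD mice.

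The sequences before the start sites of C1qb, C1qc and C1s1, in which fixed regulatory motifs were searched, are shown. C1qb and C1qc are neighbours in the RefSeq table and fell together with age in BACHD mice, while C1s1 was higher with age in WT mice. Of these sequences only that of C1s1 holds a match. They are from RefSeq, build GRCm38.p6, 5′ to 3′ on the minus strand, without bases inside the annotated gene. C1qb is chr4:136886201-136886450, C1qc chr4:136892937-136893164 and C1s1 chr6:124542393-124542609, and capitals mark a C/EBP match.
C1qb: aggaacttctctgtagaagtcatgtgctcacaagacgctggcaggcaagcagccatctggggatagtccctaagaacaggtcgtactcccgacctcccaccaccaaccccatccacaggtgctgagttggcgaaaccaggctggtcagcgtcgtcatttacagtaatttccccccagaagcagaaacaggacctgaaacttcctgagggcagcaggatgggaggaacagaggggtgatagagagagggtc
C1qc: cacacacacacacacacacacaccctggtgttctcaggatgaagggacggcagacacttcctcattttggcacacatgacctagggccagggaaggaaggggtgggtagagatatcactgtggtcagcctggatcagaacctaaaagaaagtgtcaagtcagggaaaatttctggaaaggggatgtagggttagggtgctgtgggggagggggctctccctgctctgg
C1s1: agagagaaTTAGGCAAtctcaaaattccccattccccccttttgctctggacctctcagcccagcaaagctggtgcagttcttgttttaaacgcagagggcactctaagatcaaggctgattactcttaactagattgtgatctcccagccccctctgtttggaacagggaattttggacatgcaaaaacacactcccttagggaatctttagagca

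Of the 7 complement genes, 3 had an entry in the promoter table (C3, Cfp and Cd55), and so had 41 of the 56 further genes. The motifs were the gamma-activated site TTCNNNGAA, the interferon-stimulated response element core (GAAA and GAAA with any 2 bases between), NF-kB (GGGA and TTCC with any 2 bases between) and C/EBP as TTGCNNAA, searched on both strands in the 250 bases before the start, where matches of different motifs may overlap. Over all 32851 promoters, 7.02%, 2.98%, 1.21% and 9.56% held a match. The C1qb, C1qc, Cd55, Cfp and Vsig4 windows held none of these letters, 1 of the C1s1 windows held 1 C/EBP match 242 to 235 bases before the start, and the C3 window held 1 C/EBP match, TTGCGAAA, 45 to 38 bases before the start.

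Outside the C1 complex, Vsig4 was the one gene of the further list that was called in a comparison between groups. Among the lectins and their proteases 1 of 7 measured genes was detected on at least 4 arrays, the ficolin Fcna, at group means of 7.30, 7.15, 7.65 and 7.34 in young WT, young BACHD, old WT and old BACHD mice. Of the 7 soluble regulators 3 were detected, among them clusterin (Clu), which keeps the terminal complex off membranes and differed between genotypes at 15 mo by 0.28 (limma P 0.0092, adjusted p 0.65). Of the 7 membrane regulators 3 were detected, among them Cd59a, which blocks the last step of the membrane attack complex and had age differences of 0.01 in WT and -0.05 in BACHD mice. Of the 9 receptors 2 were detected, Vsig4 and Cd93, an endothelial receptor that has been linked to C1q and differed with age by -0.51 in BACHD mice (limma P 0.0072). Of the 6 terminal components 3 were detected, among them C8g with differences between -0.26 and -0.09 over the 4 comparisons.

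Several liver-made components were highest on the arrays with raised hepatocyte markers. Cfi, the protease that cuts the surface-bound C3 and C4 fragments, was 6.36 to 7.32 on the 4 arrays with raised hepatocyte markers and 4.51 to 5.63 on the other 12. C8g, a chain of the membrane attack complex, was 7.94 to 8.70 on those 4 arrays and 7.22 to 7.60 on the rest. Neither gene overlapped between these sets of arrays. Masp2, the lectin-route protease, was 5.38 to 6.14 against 4.56 to 5.33, and C6 was 5.20 to 6.15 against 4.43 to 5.14. These Masp2 and C6 probes were each detected on only 3 arrays. Other components overlapped between the sets. Vtn was 9.47 to 9.92 on the 4 arrays and 8.84 to 9.62 on the rest. C8b was 7.36 to 7.84 against 7.11 to 7.54, and the brightest C9 probe was 5.61 to 6.43 against 5.08 to 6.16. A second C9 probe, detected on 4 arrays, did not overlap between the sets. It was 6.06 to 7.52 on the 4 arrays with raised hepatocyte markers and 4.36 to 5.11 on the rest. The C4b ranges overlapped, with 7.75 to 8.95 on the 4 arrays and 6.87 to 9.39 on the rest. Of the 13 hepatocyte markers 10 reached detection on 4 arrays or more and 3 (Alb, Fgb and Tat) on no array. None of the 13 was called in any comparison, where 0.483% to 5.16% of all probes were called. The origin of the raised liver transcripts was not tested.

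**Figure D5:**
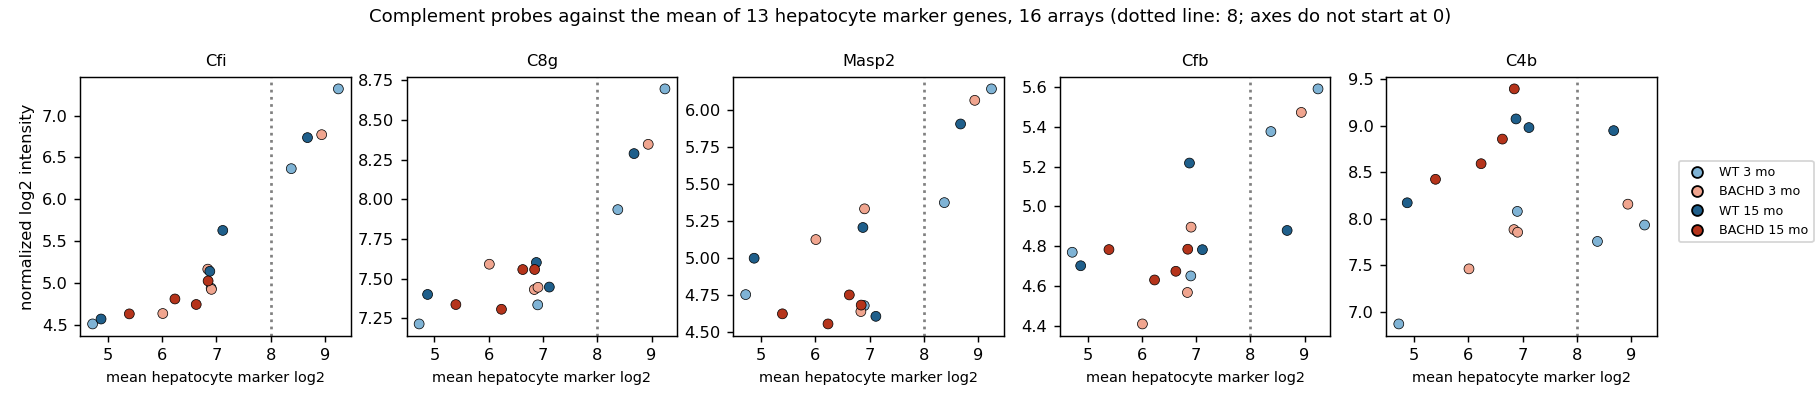
Normalized log2 intensity of Cfi, C8g, Masp2, Cfb and C4b against the mean of 13 hepatocyte marker genes on the same array (log2), 16 arrays coloured by group, with a dotted line at 8. Cfi and C8g lie highest on the 4 arrays right of the line, at 6.36 or more and 7.94 or more, while C4b spreads over 7.75 to 8.95 there.

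The genes most like each complement gene over the 16 arrays were taken from 9680 other probes detected on at least 8 arrays, by Pearson's r, as a description. Ccl8 (r = 0.92, rho = 0.94), a chemokine, Serpina3n (r = 0.92, rho = 0.93), a secreted serpin that rises in inflammation, and Npr3 (r = 0.90, rho = 0.88), the clearance receptor of natriuretic peptides, were most like C4b. After the group means were removed, r was 0.78, 0.78 and 0.68. Serpina3n was itself called with age, higher by 1.44 in WT (limma P 5e-05) and by 1.36 in BACHD mice (limma P 9.1e-05). For C2 the 3 genes were Ddo (r = 0.81), Upk3b (r = 0.80), a marker of mesothelium, and Cd59b (r = 0.79). For Serping1 they were Ecm1 (r = 0.86) and Aebp1 (r = 0.84), both of the extracellular matrix, and Amotl2 (r = 0.83). For Cd55 they were Bcap31 (r = 0.83), Egln1 (r = 0.78) and Usf2 (r = 0.77). Between C4b and Serping1 r was 0.71, the highest of the 10 pairs of the 5 genes. After the group means were removed it was 0.44, below that of C4b and C2 (0.52) and of 3 other pairs.

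Lists of response genes were read beside the complement genes. Of 32 measured interferon response genes, 8 were lower and 0 higher in old than in young BACHD mice, where 5.16% of all probes were called. Among the 8 were Cxcl9, a chemokine induced by interferon gamma, by -1.42, Gbp3 by -1.14, Isg15 by -1.07 and Ifit3 by -0.88. In the other 3 comparisons 0 of the 32 were called. There 0.483% (genotype at 3 mo), 0.887% (genotype at 15 mo) and 2.76% (age in WT) of all probes were called. Of 21 acute phase and NF-kB targets, Serpina3n was higher with age in both genotypes, and Vcam1 was higher with age in WT by 0.47. Saa1 also passed the threshold between genotypes at 15 mo, but its probe was detected on 0 arrays and no difference is given. Over the 21 targets, 11 differences with age in BACHD mice were positive and 10 negative, with a median of 0.02. Serpina3n was picked above from these same arrays for its likeness to C4b, so its shared direction with C4b is no separate result. A link between C4b and either list was not tested.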

How the data were processed

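Gene expression of mouse ventricles was measured on 16 single-colour Illumina MouseRef-8 v2.0 arrays, 4 in each group. The authors deposited raw intensity values from BeadStudio, not normalized, together with detection p-values. They also deposited processed log2 values, which equal the log2 of the intensity after quantile normalization and served as an alternative. The arrays report no read depth.

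Intensities were corrected by normexp with a background inferred from the detection p-values (offset 16), taken to log2 and quantile normalized, as in the neqc function of limma 3.58.1 in R 4.3.3. A linear model over all 16 arrays and 25697 probes with 4 group means and moderated variances gave the 5 contrasts: genotype at each age, age in each genotype, and the change of the genotype effect with age. A probe was called at P below 0.005, and Benjamini-Hochberg values over all probes were computed beside it with a threshold of 0.05. Groups were also compared by a two-sided exact permutation test over the 70 assignments of 8 arrays. The fit was tested on simulated data. Figures were drawn with matplotlib 3.10.9.

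The complement genes and all lists were chosen with earlier results of these data known. All 7 genes were to be named. Where a gene had several probes, that of highest mean stood for it. Of the other complement genes, those called in a comparison between groups and the brightest of each role were named. Of the other lists, up to 4 called genes of largest difference were named. For likeness, the 3 probes of highest r were named. A symbol was given for 23978 probes, and 1719 had none. Alternatives were the background correction, its offset, the scaling, the deposited processed values, a filter on dim probes, the arrays in the fit, the variance model, a replicate block, averaged probes and leaving out arrays. A further 4, on the hepatocyte and atrial markers, were chosen after seeing the data. Replicate numbers were not used to pair the samples in the main fit. The deviations of arrays of the same number correlated at -0.504 to 0.312. Those with an old BACHD array were all positive, at 0.053 to 0.312. Arrays of different numbers were not compared, so a batch shared by arrays of the same number was not excluded.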

Additional observations from a re-analysis of the deposited data

Results flagged for a closer look

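In 3 of 40 groups of 4 arrays, over the detected complement genes described above, 1 array stood far from the other 3, with a gap to the nearest that passed Dixon's 95% critical value as a share of the group's range. Chance gives about 1 such array in 20 groups. WT old replicate 1 had a C4b value of 8.17, where the nearest old WT array had 8.95. Without it the C4b age difference in WT mice was 1.34. WT young replicate 1 had a C1qc value of 9.77, where the nearest young WT array had 10.13. BACHD young replicate 1 had a C1qc value of 9.72, where the nearest young BACHD array had 10.17, and without it the C1qc age difference in BACHD mice was -0.56.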

How the results depend on the processing

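Of 777 values of single genes under an alternative, 701 kept direction and side of the threshold, 42 lost a call, 7 gained one and 27 changed sign, with 0 of the last past the threshold. Signs changed without the 4 arrays of raised hepatocyte markers for C2 (-0.0034), Serping1 (-0.034) and Cd55 (-0.13) between genotypes at 3 mo, for Cd55 with age in BACHD (0.061) and for the change with age of the genotype effect of C1qa (0.077). With median scaling Cd55 turned to -0.0021 at 3 mo and to 0.0094 with age in BACHD. C2 at 15 mo turned to 0.15 without the 4 arrays of raised atrial markers, 0.025 with the hepatocyte covariate and 0.045 with the atrial covariate, and the change with age of the genotype effect of C1s1 to 0.025 with probes averaged.

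With 1 array left out, the genotype difference at 3 mo ran from -0.084 to 0.32 for C4b, -0.014 to 0.20 for C2 and -0.072 to 0.12 for Cd55. At 15 mo it ran from -0.18 to 0.16 for C4b, -0.23 to 0.15 for C2 and -0.11 to 0.0084 for Serping1. With age it ran from -0.34 to 0.039 for C2 in WT and from -0.13 to 0.061 for Cd55 in BACHD, and the change with age of the genotype effect of C4b from -0.36 to 0.11.

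Of the 5 complement genes, the count called with age in WT went from 1 to 0 without the hepatocyte arrays, without the atrial arrays and with the atrial covariate. In BACHD it went from 1 to 0 under the same 3 settings and with trended and robust variances, and was 0 to 1 with 1 array left out. Of the other complement genes, 2 were called with age in WT, and 1 without the hepatocyte arrays, without the atrial arrays or with probes averaged, 0 with the atrial covariate and 1 to 2 with 1 array left out. In BACHD 3 were called, and 5 with trended and robust variances, 5 with the replicate block, 1 with the atrial covariate and 0 to 4 with 1 array left out. Between genotypes at 15 mo 0 were called, and 1 without background correction, with the authors' processed values, with trended and robust variances and without the hepatocyte arrays, and 0 to 1 with 1 array left out. The causes were not tested.

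Over all probes the counts called were 124 (52 to 203), 228 (127 to 443), 709 (376 to 807), 1327 (858 to 1611) and 157 (87 to 332) in the order of the contrasts, with the range over the alternatives. The lowest come from the filter on detected probes at both genotype comparisons and the change of effects, from leaving out the hepatocyte arrays with age in WT and from median scaling with age in BACHD. The filter left 10960 of the 25697 probes, so its counts are out of fewer probes and are not on the same footing as the others. The replicate block changed no call of the 5 complement genes. The chip as a block was not run, since the file headers used here name no chip. Cfb, not detected on any array, allows no statement about its level.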

Other observations

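Over all probes, 2.76% were called with age in WT and 5.16% in BACHD mice. Between genotypes 0.483% were called at 3 mo and 0.887% at 15 mo, and 0.611% for the change of the genotype effect. With so few genes in each list below, a single call is no result about the list. Among cell type markers, 1 of 10 measured neutrophil markers, S100a8, was called with age in BACHD mice, higher by 2.52 (limma P 0.002, adjusted p 0.057). Its values were 7.01, 6.19, 8.02 and 7.16 on the young and 9.29, 9.78, 8.35 and 11.05 on the old BACHD arrays, without overlap. In young WT mice S100a8 ranged from 6.62 to 10.50, which spans most of the old BACHD range. Of 9 measured T and B cell markers, Cd3g, a chain of the T cell receptor complex, passed the threshold with age in WT (limma P 3.1e-05, adjusted p 0.011), but its probe was detected on 1 array and no difference is given. Of 10 endothelial markers, Eng was higher with age in WT by 0.49 and lower in BACHD than in WT mice at 15 mo, by -0.40, and the change of its genotype effect with age was -0.60 (limma P 0.0031, adjusted p 0.76). Of 9 smooth muscle and pericyte markers, Myh11 was higher with age in WT by 0.82, and of 9 adipocyte markers, Lipe, detected on 7 arrays, was higher with age in BACHD mice by 0.58. Of the 9 mesothelial and epicardial markers measured, 0 were called in any comparison, while Upk3b had an r of 0.80 with C2 over the 16 arrays.

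Of the 8 atrial markers, Dkk3 was higher with age by 1.27 in WT and by 1.17 in BACHD mice, and Nppa, the gene of atrial natriuretic peptide, was higher in BACHD than in WT mice at 15 mo by 1.33 (limma P 0.00054, adjusted p 0.39). Of the 8 atrial markers, 7 were detected on at least 4 arrays, while Bmp10, which is restricted to atrial myocytes in the adult heart, was detected on 0. With age 7 of the 8 had a positive difference in each genotype, with medians of 0.91 in WT and 0.44 in BACHD mice. The origin of the raised atrial transcripts was not tested.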
